A study of Triticum aestivum with 13 samples.

Results

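Leaves of the wheat line TugelaDn2 were compared with leaves of the susceptible near-isogenic line Tugela, both taken under feeding by the Russian wheat aphid, Diuraphis noxia. The comparison rests on the 6 arrays titled for these lines, 3 biological repeats of TugelaDn2 and 3 of Tugela, out of 13 arrays and 12 biological repeats in the series. Tugela carries the genotype label Dn0 and the label susceptible, and the aphid is labelled virulent on it. TugelaDn2 carries the genotype label Dn2, the label resistant and the host response tolerance, and the aphid is labelled non-virulent on it. The other lines, TugelaDn1 (antibiosis) and TugelaDn5 (antibiosis and antixenosis), entered the fit for its estimate of the spread and are given beside the members as levels. All plants of every line received 10 aphids of biotype SA1 per plant for 48 h, and every leaf but the first was collected. Every sample was infested, so differences that the lines had before feeding and differences in their response to it cannot be told apart. The free-text description of the TugelaDn2 samples names TugelaDn1, and the title, source name and genotype fields were used instead. How many plants made up a repeat is not stated, so the p-values measure the spread between these repeats only.

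Tolerance is the form of resistance in which a plant withstands an aphid load that damages a susceptible plant, whereas antibiosis harms the aphid and antixenosis repels it. The Russian wheat aphid feeds from the phloem of cereal leaves and causes leaf rolling and loss of chlorophyll in susceptible wheat, and the Dn genes of wheat give resistance to it. Near-isogenic lines share most of their genome, and they differ in the introgressed segment around the resistance gene and in whatever else was carried along with it.

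Each transcript was read by a probe set, a group of short probes, on single-colour wheat GeneChip arrays. All 61179 probe sets other than the platform's 111 control probe sets were compared. Levels are log2 intensities with a floor of 4, which stands for an intensity of 16 or less, and the differences are TugelaDn2 minus Tugela. A probe set was called bright when its mean was 8 or more in either line, which held for 19752. Probe sets of 1 transcript cluster share the start of their identifier up to the second point, such as Ta.3830, and the 61179 probe sets fell into 45641 clusters, apart from 64 with other names. The cluster name is not a gene name: 1273 probe sets were paired with 1 gene in the platform's table, and most of those genes have only a LOC number, to which no function was given here.

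The 6 arrays were alike in their overall distribution. The share of values under 16 lay between 19.3% and 21.4%, and the median intensity between 82.3 and 94.5. Spearman correlations between arrays, taken over probe sets that are no independent replicates, ranged from 0.868 to 0.881 within Tugela, from 0.875 to 0.892 within TugelaDn2 and from 0.859 to 0.887 between the lines. The ratio of the 3′ to the 5′ control probe set of sucrose synthase, a sign of RNA integrity and labelling, was 57.9, 20.3 and 34.9 in Tugela repeats 1, 2 and 3 and 32.2, 21.6 and 38.5 in those of TugelaDn2. The poly-A control transcripts had mean levels of 12.03, 10.48 and 11.39 in Tugela and of 11.75, 11.42 and 12.51 in TugelaDn2. Tugela repeat 1 thus had the highest of the 6 sucrose synthase ratios and TugelaDn2 repeat 3 the highest poly-A controls. The same ratio for ubiquitin lay between 0.346 and 0.457 in the 6 arrays, highest in Tugela repeat 1. In the other lines the sucrose synthase ratio ran from 21.8 to 96.3, and the 2 arrays of TugelaDn5 repeat 3 gave 61.1 and 96.3. The tissue was a green leaf by its markers: the Rubisco large subunit gene rbcl (Ta.24976.1.S1_x_at) was read at 16.51 to 17.20 and PsbO, of the oxygen-evolving complex (Ta.841.1.S1_a_at), at 16.15 to 16.59 in all 6 arrays. Of 17 probe sets for seed storage proteins, 11 had means under 6 in both lines, and 1, the avenin-like ALP (Ta.27777.1.S1_at), was bright, at 13.01 to 13.26 in all 6 arrays. The other probe sets of ALP, Ta.27712.1.S1_at, Ta.27777.1.S2_at and Ta.27777.1.S2_s_at, had means between 4.06 and 5.02. The probe sets of this gene thus disagreed in level.

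Most of the bright transcriptome was close to equal in both lines. Among the 19752 bright probe sets the median absolute log2 difference was 0.187, the median difference was -0.015, and 96.5% differed by less than 2-fold. In 4347 of them (22.0%) the repeats of the lines did not overlap, 2225 higher (11.3%) and 2122 lower (10.7%) in TugelaDn2. Full separation of 3 against 3 repeats has an exact two-sided permutation p of 0.1. A share of up to about that size is thus expected without any difference between lines. Of these 4347, 87.9% were under 2-fold. Without overlap and at least 2-fold apart were 526 (2.66%), 349 higher (1.77%) and 177 lower (0.896%). At 4-fold or more the counts were 110 higher (0.557%) and 22 lower (0.111%), and at 8-fold or more 38 higher and 7 lower. Among these bright probe sets the larger separated differences were thus more often increases in TugelaDn2, although the count of separated probe sets was nearly even. A probe set could be bright through its higher line alone. Both means were 8 or more in 145 of the 349 rises and in 95 of the 177 falls. Over all probe sets 7832 were without overlap (12.8%) and 5033 had an unadjusted p under 0.05 (8.23%). Past the adjusted threshold were 23 of 61179 probe sets (0.0376%), 11 higher (0.018%) and 12 lower (0.0196%), by limma with Benjamini-Hochberg adjustment at 0.05. The lower ones made up 52.2% of the calls, and 41.4% of 29 calls after quantile normalization. All 23 were without overlap, and 14 of them were bright (0.0709%), 7 in each direction (0.0354%). With the spread modelled with a trend and robustly, 254 were called (0.415%). The default fit, which gave the 23, called 45 between TugelaDn2 and TugelaDn1 (0.0736%) and 788 between TugelaDn2 and TugelaDn5 (1.29%).

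**Figure D1:**
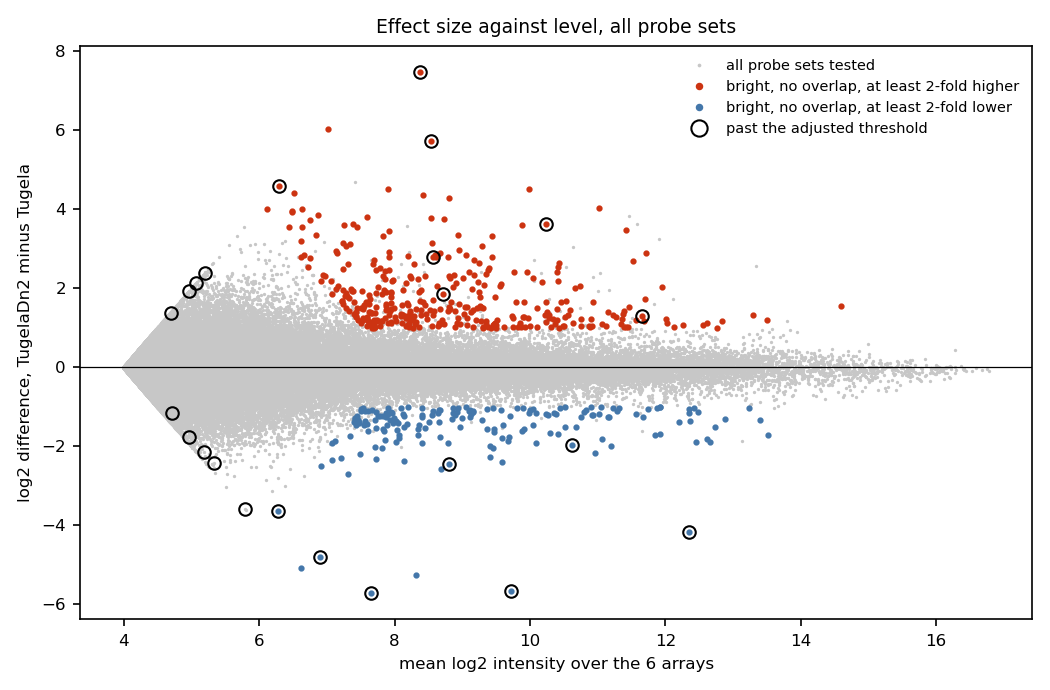
Each point is 1 of 61179 probe sets, placed by its mean log2 intensity over the 6 arrays and its log2 difference, TugelaDn2 minus Tugela. Coloured points are the 349 higher and 177 lower bright probe sets without overlap and at least 2-fold apart, rings mark the 23 called probe sets, and the cloud narrows from left to right.

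The spread between repeats fell with level up to levels of 12 to 14. The median pooled SD of a probe set was 0.766 at mean levels from 4 to 6, 0.266 from 8 to 10, 0.146 from 12 to 14 and 0.17 above 14. The 95% confidence interval of a difference reached, at the median, 1.33, 0.532, 0.348 and 0.374 to either side. A separated 2-fold difference was found in 5.6% of the probe sets from 4 to 6, where 29013 of them lay, and in 1.17% of those from 12 to 14.

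The transcripts that were lower in TugelaDn2 were led by cluster Ta.3830, of which 3 probe sets were called. Ta.3830.1.S1_a_at was one of the brightest transcripts to differ: it was read at 14.47, 14.47 and 14.38 in Tugela and at 10.28, 10.47 and 10.05 in TugelaDn2. It was 18.0-fold lower in TugelaDn2 (SE 0.13 on the log2 scale, limma adjusted p = 4.92e-06), and it was the 1 probe set whose call held in all 24 alternatives. Its means in TugelaDn1 and TugelaDn5 were 14.30 and 14.12, near that of Tugela. Ta.3830.2.S1_x_at was read at 12.54, 12.58 and 12.53 in Tugela and at 6.82, 5.65 and 8.18 in TugelaDn2, 50.8-fold lower (limma adjusted p = 0.00504). Ta.3830.2.S1_at fell from 9.30, 9.57 and 9.03 to 4.0, 4.0 and 5.52, at least 27.7-fold (limma adjusted p = 0.00258). In all 3 the repeats of TugelaDn2 lay far below those of every other line. A further bright member, Ta.3830.3.S1_x_at, was read at 7.51, 9.43 and 9.02 against 6.91, 7.06 and 7.17. It did not overlap either, with a difference of -1.61, but missed the threshold (limma adjusted p = 0.32), which it passed without Tugela repeat 1 (0.0377). The last member of the cluster, Ta.3830.3.S1_at, was dim and overlapped, at 4.0, 4.0 and 5.76 in Tugela and 4.39, 6.38 and 4.0 in TugelaDn2.

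TaAffx.107221.1.S1_at had levels of 10.76, 10.21 and 10.56 in Tugela and of 6.39, 4.0 and 4.0 in TugelaDn2, at least 52.4-fold lower (limma adjusted p = 0.0157). Its means in TugelaDn1 and TugelaDn5 were 10.09 and 9.73. TaAffx.105763.1.S1_at was read at 8.07, 8.37 and 7.87 in Tugela and at 4.0, 5.38 and 4.0 in TugelaDn2, at least 12.5-fold lower (limma adjusted p = 0.0261). In both, most TugelaDn2 repeats were at the floor and the other lines were higher, the second with means of 7.67 in TugelaDn1 and 6.77 in TugelaDn5. Of 24 alternatives 11 did not call it, including the fit without Tugela repeat 1 (limma adjusted p = 0.0596). Ta.7531.1.S1_at, which was not bright, was read at 7.25, 7.63 and 7.86 in Tugela and at the floor in every TugelaDn2 repeat, at least 12-fold lower (limma adjusted p = 0.000505). Ta.8475.1.A1_at was measured well above the floor in both lines, at 11.61, 11.44 and 11.78 against 9.78, 9.63 and 9.54, 3.90-fold lower (limma adjusted p = 0.00569). Ta.16003.1.S1_at was read at 10.24, 10.04 and 9.80 against 7.53, 7.4 and 7.79, 5.48-fold lower (limma adjusted p = 0.011). Among the bright called falls it was the exception in that TugelaDn5, with a mean of 8.17, lay nearer to TugelaDn2 than to Tugela. TugelaDn1 was at 9.20. The other 4 called falls were dim. Ta.3767.1.A1_at, Ta.18372.1.S1_at, TaAffx.107226.1.S1_at and TaAffx.4734.1.S1_at had Tugela levels between 5.26 and 6.70 and TugelaDn2 levels between 4.0 and 4.42. Of 23 alternatives 17, 10, 4 and 20 did not call them. At TaAffx.107226.1.S1_at and TaAffx.4734.1.S1_at the means of TugelaDn1 and TugelaDn5 were likewise between 4.0 and 4.04. TugelaDn1 and TugelaDn5 had means of 4.01 and 5.71 at Ta.18372.1.S1_at and of 6.28 and 4.97 at Ta.3767.1.A1_at. The other members of cluster Ta.3767, all dim, overlapped and differed by -0.09, -0.64 and -0.44.

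**Figure D2:**
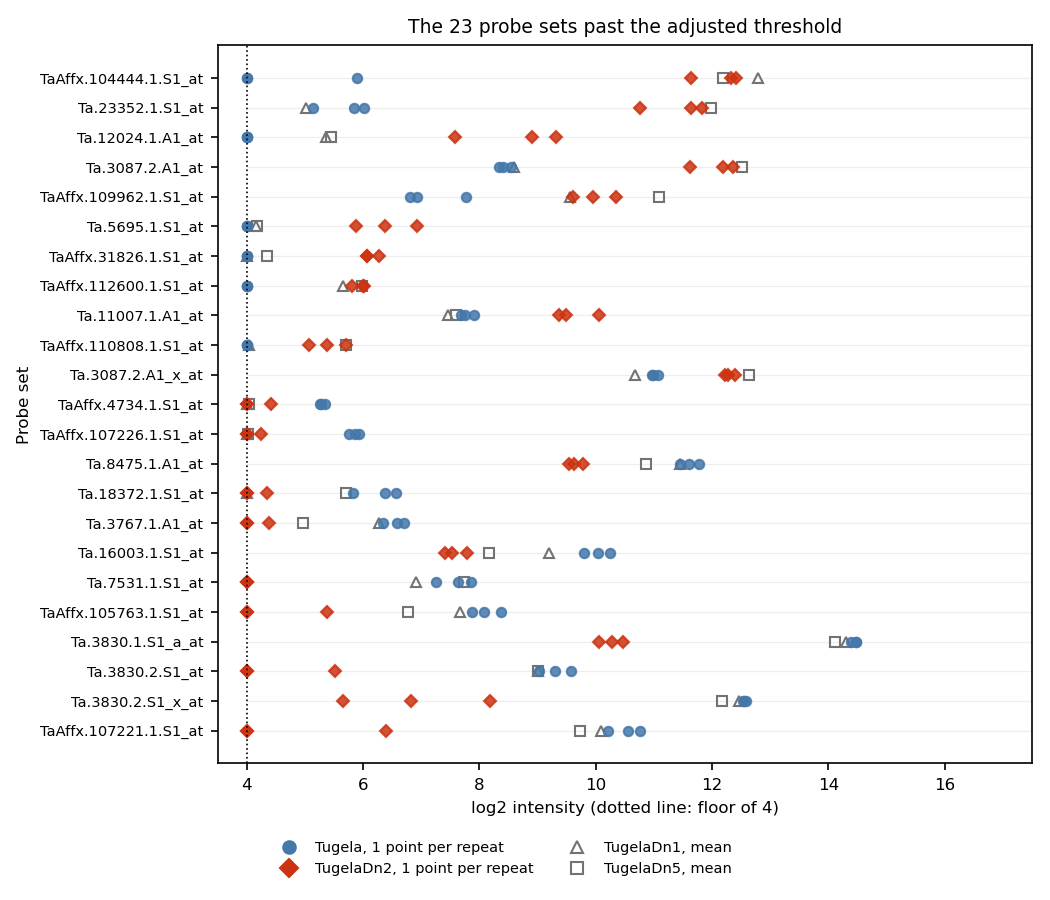
Log2 intensities of the 23 called probe sets, ordered by difference, with 1 point per repeat of Tugela and TugelaDn2 and open symbols for the means of TugelaDn1 and TugelaDn5; the dotted line is the floor of 4. Ta.3830.1.S1_a_at lies between 10.05 and 10.47 in TugelaDn2 and between 14.38 and 14.47 in Tugela, and for several of the rises the open symbols lie with TugelaDn2.

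The largest called rise was that of TaAffx.104444.1.S1_at, which was read at 4.0, 5.90 and 4.0 in Tugela and at 12.41, 12.32 and 11.64 in TugelaDn2, a log2 difference of at least 7.49 (limma adjusted p = 0.000505). TugelaDn1 and TugelaDn5 had means of 12.79 and 12.18, so Tugela was the line that stood apart at this probe set. Ta.23352.1.S1_at was read at 5.84, 6.02 and 5.14 against 10.76, 11.64 and 11.82, 53.6-fold higher in TugelaDn2 (limma adjusted p = 0.000505). Here TugelaDn5 was bright too, with a mean of 11.98, and TugelaDn1 was dim, at 5.02. The 2 members of cluster Ta.3087 had the same arrangement. Ta.3087.2.A1_at was read at 8.41, 8.54 and 8.33 in Tugela and at 11.62, 12.18 and 12.36 in TugelaDn2, 12.4-fold higher (limma adjusted p = 0.000505), with means of 8.59 in TugelaDn1 and 12.51 in TugelaDn5. Ta.3087.2.A1_x_at was read at 11.07, 10.99 and 10.97 against 12.28, 12.23 and 12.39, 2.45-fold higher (limma adjusted p = 0.0407). Both read the same target, so they are not separate transcripts, and 14 of 24 alternatives did not call the second, including the fit without Tugela repeat 1 (limma adjusted p = 0.0701).

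Ta.12024 and Ta.11007 were highest in TugelaDn2. Ta.12024.1.A1_at stayed at the floor in all of Tugela and was at 8.91, 7.58 and 9.32 in TugelaDn2, at least 24.3-fold higher (limma adjusted p = 0.0134). Its means were 5.37 in TugelaDn1 and 5.44 in TugelaDn5. The direct limma comparison of TugelaDn2 with TugelaDn5 passed (adjusted p = 0.00985), and that with TugelaDn1 did not (adjusted p = 0.0577). Ta.11007.1.A1_at was read at 7.69, 7.75 and 7.91 against 9.36, 9.49 and 10.05, 3.61-fold higher (limma adjusted p = 0.016). It lay at 7.46 and 7.60 on average in TugelaDn1 and TugelaDn5, and TugelaDn2 differed from both (limma adjusted p = 0.00645 and 0.000662). TaAffx.109962.1.S1_at was read at 7.77, 6.93 and 6.80 against 9.96, 10.35 and 9.60, 6.99-fold higher (limma adjusted p = 0.0157), and its means in TugelaDn1 and TugelaDn5 were 9.55 and 11.09. The remaining 4 rises were dim: Ta.5695.1.S1_at, TaAffx.31826.1.S1_at, TaAffx.112600.1.S1_at and TaAffx.110808.1.S1_at were at the floor in all Tugela repeats and between 5.07 and 6.93 in TugelaDn2. Of 23 alternatives 11, 13, 5 and 20 did not call them. TugelaDn1 and TugelaDn5 had means between 4.0 and 4.35 at Ta.5695.1.S1_at and TaAffx.31826.1.S1_at. At TaAffx.112600.1.S1_at both lay near TugelaDn2, at 5.65 and 5.98. At TaAffx.110808.1.S1_at TugelaDn1 was at 4.03 and TugelaDn5 at 5.71.

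Among bright probe sets without overlap the 15 largest rises and the 15 largest falls held 9 of the called probe sets and 21 that were not called. Several of the uncalled ones were as large, with wider intervals. Ta.10217.1.A1_at was read at 10.82, 11.07 and 10.95 in Tugela and at 5.12, 5.69 and 6.24 in TugelaDn2, 38.4-fold lower (limma adjusted p = 0.228). Ta.10217.3.S1_at was read at 8.82, 9.38 and 9.24 against 4.0, 4.24 and 4.0, at least 33.6-fold lower (limma adjusted p = 0.175). A gap of several log2 units separated the lines, while the TugelaDn1 repeats ranged from 5.67 to 10.97 for the first, which entered the shared spread, and the TugelaDn5 repeats from 4.0 to 5.83. The dim further member, Ta.10217.2.S1_at, was at the floor in all TugelaDn2 repeats and between 6.62 and 8.62 in Tugela. Ta.385.1.A1_at was read at 10.74, 10.64 and 10.99 in Tugela and at 7.68, 7.18 and 10.32 in TugelaDn2, with a difference of -2.40 (limma adjusted p = 0.32). TugelaDn2 repeat 3 lay close to Tugela, and without it the difference was -3.36 and was called (limma adjusted p = 0.000758). Its companion Ta.385.1.A1_s_at, which reads the same target, differed by -2.17 and by -2.83 without that repeat (limma adjusted p = 0.00112). The 3 members with another number, Ta.385.2.S1_at, Ta.385.3.S1_a_at and Ta.385.3.S1_x_at, differed by -0.25, -0.31 and -0.91.

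Ta.23373.1.S1_at stayed at the floor in all of Tugela and was at 10.60, 8.76 and 10.76 in TugelaDn2, at least 65.8-fold higher (limma adjusted p = 0.213). TugelaDn1 ranged from 5.03 to 11.05 at this probe set and TugelaDn5 from 11.10 to 11.33. Other members of its cluster did not share the size: the difference was 1.51 for Ta.23373.1.S1_x_at and between -0.13 and 0.21 for the 3 members with another number after the cluster name. Ta.13768.1.S1_x_at was read at 7.18, 7.35 and 8.63 in Tugela and at 12.56, 11.07 and 13.11 in TugelaDn2, 23.1-fold higher (limma adjusted p = 0.073). Its means were 8.01 in TugelaDn1 and 7.54 in TugelaDn5, and TugelaDn2 differed from TugelaDn5 (limma adjusted p = 0.00658) and not, past the threshold, from TugelaDn1 (adjusted p = 0.0662). The dim companion Ta.13768.2.S1_at, with another number after the cluster name, overlapped and differed by 0.37. Ta.223.1.S1_at was read at 7.62, 6.58 and 4.52 against 10.69, 10.90 and 10.23, 20.7-fold higher (limma adjusted p = 0.149). TaAffx.15327.1.S1_at was read at 11.58, 8.02 and 7.41 against 13.02, 13.64 and 12.44, 16.3-fold higher (limma adjusted p = 0.382). In both the Tugela repeats spread over more than the TugelaDn2 repeats did, with repeat 1 highest. Ta.23366.2.S1_at showed the reverse, with 4.0, 4.0 and 4.90 in Tugela and 5.71, 6.52 and 13.94 in TugelaDn2, and its difference of 4.42 fell to 1.81 without TugelaDn2 repeat 3.

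**Figure D3:**
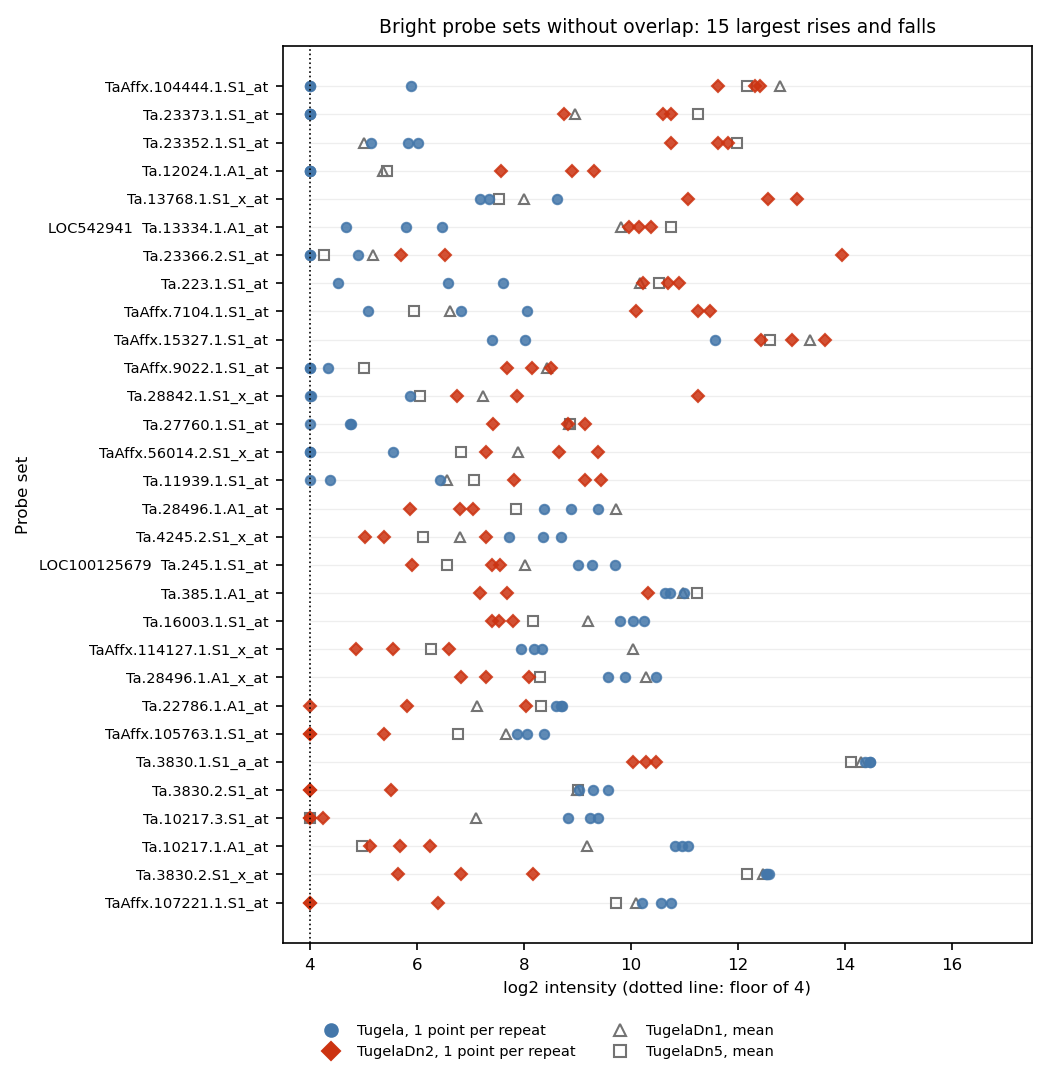
Log2 intensities of the 15 largest rises and 15 largest falls among bright probe sets without overlap, with 1 point per repeat of Tugela and TugelaDn2, open symbols for the means of TugelaDn1 and TugelaDn5 and the floor of 4 dotted. The single high TugelaDn2 repeat of Ta.23366.2.S1_at is at 13.94, and the high Tugela repeat of TaAffx.15327.1.S1_at is at 11.58.

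The separated rises were not placed evenly against the Tugela repeats. In 191 of the 349 bright rises of at least 2-fold, the Tugela repeat nearest to TugelaDn2 was repeat 1, in 100 it was repeat 2 and in 58 repeat 3. The TugelaDn2 repeat nearest to Tugela was repeat 1 in 168, repeat 3 in 134 and repeat 2 in 47. Among the 177 falls the nearest Tugela repeat was repeat 1 in 73, repeat 3 in 58 and repeat 2 in 46. The median SD within Tugela was 0.459 for the rises and 0.254 for the falls, against 0.197 for all bright probe sets. Within TugelaDn2 it was 0.322 for the rises and 0.484 for the falls, against 0.192. Without Tugela repeat 1, 829 bright probe sets were separated by at least 2-fold, 519 higher and 310 lower, and they included 483 of the 526. Leaving out any other repeat of these lines also raised the count, to between 580 and 708, as fewer repeats are separated more easily. Tugela repeat 1 was also the repeat with the sucrose synthase ratio of 57.9, and the part of that in the counts was not tested.

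Where a bright probe set was separated by at least 2-fold, the other bright probe sets of its transcript cluster mostly moved with it. Of the 526 separated bright probe sets, 209 had at least 1 other bright probe set in their cluster. For 186 of the 209 all bright companions had the same sign, for 135 all companions were also separated in the same direction, and for 7 a companion was separated in the opposite direction. Companions with the same number after the cluster name, which read the same target, were separated in the same direction in 103 of 132 pairs (78.0%). Companions with another number were so in 199 of 312 pairs (63.8%), with a median difference of 0.902 in the direction of the first probe set. Pairs were counted from each of the 209 probe sets, so a pair with both members among them was counted from both sides. This can raise both shares. The shares among all bright probe sets were 11.3% for higher and 10.7% for lower. Probes of companions can overlap and all of them were read from the same RNA, so they are not independent measurements.

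Of 3464 clusters with at least 2 bright probe sets, 2191 (63.3%) had 1 sign throughout and the others held both signs. No reference for this share was computed, and small clusters share a sign more readily. Without overlap in every bright member, 145 were higher and 104 lower. With every member at least 2-fold apart as well, 29 clusters were higher and 9 lower. By the smallest difference among their members, the lower cluster Ta.10217 led, followed by TaAffx.7104, Ta.21354, Ta.11087 and Ta.20147, which were higher in TugelaDn2. The 3 members of Ta.20147 read 3 different targets and had their highest means in TugelaDn2. Ta.20147.1.S1_at was read at 4.01, 6.21 and 6.49 in Tugela and at 9.34, 8.30 and 9.97 in TugelaDn2, Ta.20147.2.S1_a_at at 4.88, 5.58 and 4.19 against 8.90, 7.75 and 9.19. Ta.20147.3.S1_a_at was read at 6.00, 6.42 and 7.17 against 8.89, 8.58 and 9.69. Their differences were 3.63, 3.73 and 2.52, none past the threshold (limma adjusted p = 0.294, 0.134 and 0.128), and their means in TugelaDn1 and TugelaDn5 lay between 4.61 and 7.18. TaAffx.7104.1.S1_at had the same distribution between lines on average, at 6.83, 8.06 and 5.08 against 11.48, 11.25 and 10.09, with means of 6.62 in TugelaDn1 and 5.94 in TugelaDn5. Its TugelaDn1 repeats ranged from 4.0 to 10.64, and the adjusted p by limma was 0.468.

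In 3 of the leading clusters TugelaDn1 and TugelaDn5 lay near TugelaDn2. The 3 bright members of Ta.11087 differed by 2.64 to 3.12, the 2 of Ta.21354 by 2.85 and 3.61, and the 2 of Ta.15082 by 2.15 and 2.42, and TugelaDn1 and TugelaDn5 had means within 1 log2 unit of TugelaDn2 at each of these 7 probe sets. In Ta.11087, Ta.15082, Ta.19805 and Ta.21354 every bright member was highest in repeat 1 among the Tugela repeats. Ta.11087.1.S1_at, for example, was read at 9.22, 7.35 and 7.2 in Tugela and at 10.53, 10.89 and 10.29 in TugelaDn2 (limma adjusted p = 0.249). TaAffx.82113.1.S1_x_at, from another of the 10, was more even, at 7.95, 8.44 and 8.07 against 10.32, 10.72 and 10.80, a difference of 2.46 (limma adjusted p = 0.0713). The lower cluster Ta.28496 was read at 9.58, 10.48 and 9.90 against 8.09, 7.29 and 6.83 by Ta.28496.1.A1_x_at, 5.99-fold lower (limma adjusted p = 0.114). Its companion Ta.28496.1.A1_at was 4.95-fold lower than in Tugela without passing the threshold (limma adjusted p = 0.148). The comparison of TugelaDn2 with TugelaDn1 did pass at this probe set (limma adjusted p = 0.0446).

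Clusters with 4 or more bright members, all separated and at least 2-fold apart, were picked out after their values were seen. They were Ta.7022 with 6 members, Ta.9251 with 5, Ta.7223, Ta.7143 and Ta.16082 with 4 each, all higher, and Ta.3830 with 4, lower. In Ta.7022 the 6 differences ran from 1.77 to 3.57. Its probe set Ta.7022.2.S1_at was read at 8.19, 8.17 and 8.08 in Tugela and at 10.10, 10.39 and 9.89 in TugelaDn2, with means of 8.35 in TugelaDn1 and 8.90 in TugelaDn5 (limma adjusted p = 0.154). At Ta.7022.1.S1_s_at, Ta.7022.1.S1_x_at and Ta.7022.1.S1_at TugelaDn5 lay near TugelaDn2, with means of 9.31, 8.83 and 8.78 against 9.23, 8.83 and 9.10. At Ta.7022.2.S1_x_at and Ta.7022.3.S1_at it was lower, at 9.36 and 7.69 against 10.39 and 10.30. In Ta.9251 the differences ran from 1.25 to 1.79, and Ta.9251.2.A1_x_at came nearest to the threshold (limma adjusted p = 0.0714). In Ta.7143 the 4 differences were 1.33 to 1.74, with wide intervals of which the widest, for Ta.7143.3.S1_a_at, ran from -1.11 to 4.41. Within these clusters 3 of the 4 bright members of Ta.3830 were the only ones called.

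**Figure D4:**
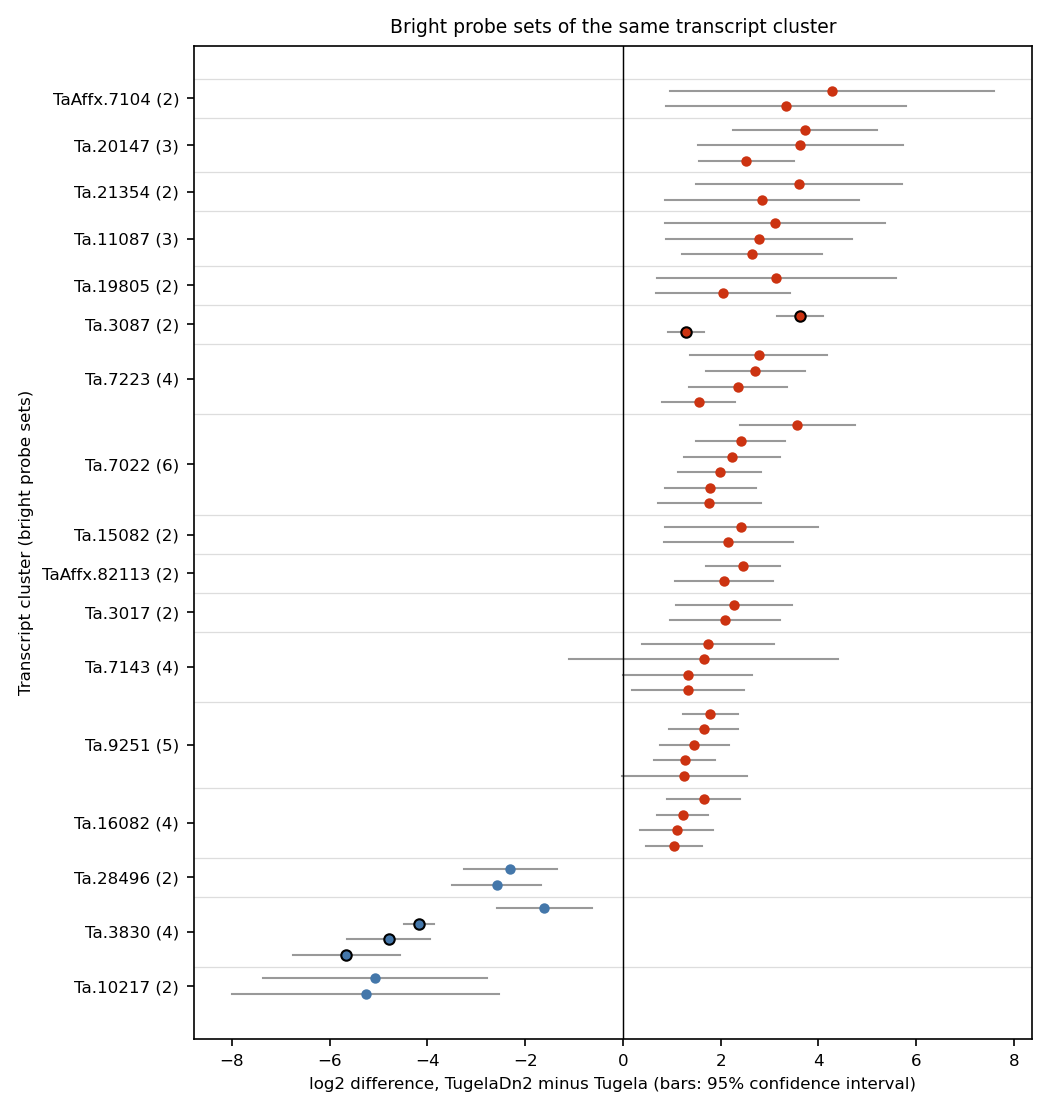
Log2 differences, TugelaDn2 minus Tugela, of the bright probe sets of 17 transcript clusters, grouped by cluster with the number of probe sets in brackets; bars are 95% confidence intervals from the limma fit and outlined points are called. All clusters but Ta.3087 were chosen with every bright member separated in 1 direction, so their points lie on 1 side of 0. Ta.3087 was added for its called members, and called members occur in Ta.3830 and Ta.3087.

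Among the 1273 probe sets paired with a gene, 0 were called by limma (0.0%), 122 had an unadjusted p under 0.05 (9.58%), and 9 were called when the spread was modelled with a trend and robustly (0.707%). Of 708 bright ones, 181 were without overlap (25.6%), 104 higher (14.7%) and 77 lower (10.9%). Without overlap and at least 2-fold apart were 12 probe sets for 11 genes that were higher (1.69%) and 11 for 10 genes that were lower (1.55%). The largest rise was that of LOC542941 (Ta.13334.1.A1_at), read at 4.68, 6.47 and 5.80 in Tugela and at 10.15, 9.96 and 10.38 in TugelaDn2. It was 22.9-fold higher, just short of the threshold (limma adjusted p = 0.0503), and its means were 9.82 in TugelaDn1 and 10.75 in TugelaDn5. LOC542887 (Ta.25053.1.S1_at) was read at 8.99, 5.72 and 5.83 against 10.72, 11.47 and 9.60, 13.4-fold higher (limma adjusted p = 0.362), and LOC100049032 (Ta.8614.1.S1_at) at 10.86, 8.86 and 8.26 against 11.27, 11.59 and 11.66. As in several clusters above, Tugela repeat 1 was nearest to TugelaDn2, which was the case in LOC778392, LOC543492, LOC542826 and LOC542839 too. LOC100037599 was read by 2 of the named probe sets and with less spread. Ta.16082.1.A1_a_at gave 10.16, 10.25 and 10.03 against 11.14, 11.46 and 11.49, 2.32-fold higher (limma adjusted p = 0.149), and Ta.16082.1.A1_at was 3.14-fold higher.

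Among the gene-paired falls, LOC543256 (Ta.3795.1.S1_x_at) was read at 11.91, 12.49 and 12.22 in Tugela and at 10.16, 10.34 and 10.11 in TugelaDn2, 4.0-fold lower (limma adjusted p = 0.128). Its mean was 13.39 in TugelaDn1, from which TugelaDn2 differed (limma adjusted p = 0.0168), and 10.35 in TugelaDn5. LOC606391 (Ta.12663.1.S1_at) was read at 9.49, 9.39 and 9.80 against 7.50, 7.62 and 8.26, 3.41-fold lower (limma adjusted p = 0.213), while TugelaDn1 and TugelaDn5 were at 10.52 and 10.48 on average. LOC542855 (Ta.1138.1.S1_at) was very bright, at 14.01, 13.84 and 14.35 against 12.51, 12.43 and 13.29, 2.50-fold lower (limma adjusted p = 0.218). The 2 probe sets of LOC542989, Ta.28351.1.S1_s_at and Ta.28351.1.S1_at, gave differences of -1.81 and -1.80. Tugela repeat 1 lay 0.16 and 0.07 log2 units above TugelaDn2 repeat 1 there, so that they were separated by little.

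**Figure D5:**
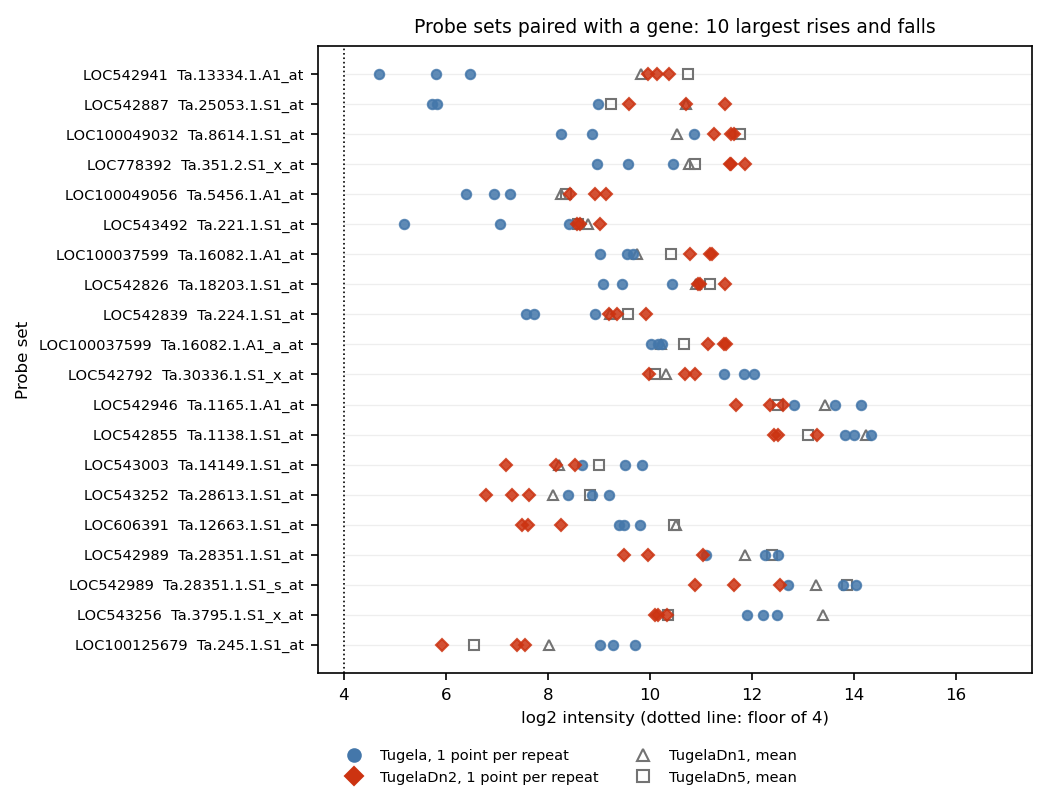
Log2 intensities of the 10 largest rises and 10 largest falls among bright probe sets paired with a gene and without overlap, with 1 point per repeat of Tugela and TugelaDn2, open symbols for the means of TugelaDn1 and TugelaDn5 and the floor of 4 dotted. LOC542941 lies between 4.68 and 6.47 in Tugela and between 9.96 and 10.38 in TugelaDn2, and the other rises are closer to the Tugela repeats.

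Genes with a known role were looked up in 15 lists, of which 14 had members among the named genes, and 0 of their members were called by limma, against 0.0376% of all probe sets. Over all probe sets the median difference was -0.00735. Of the 5 probe sets for photosystems and the electron transport chain 4 were bright, and of the 31 for carbon fixation 11 were. For photosystems and the electron transport chain the median difference over 5 probe sets was -0.133, with 4 of 5 below 0 and 0 without overlap, against 12.8% of all probe sets and 22.0% of bright ones. PsbO was read at 16.22, 16.15 and 16.59 in Tugela and at 16.18, 16.21 and 16.38 in TugelaDn2, a difference of -0.06 with a 95% confidence interval from -0.49 to 0.37. PsbP, another subunit of the oxygen-evolving complex (Ta.85.1.S1_at), differed by -0.18 (-0.61 to 0.24) and petC, the Rieske protein of the cytochrome b6f complex (Ta.861.1.S1_at), by -0.13 (-0.53 to 0.26). The second PsbP probe set, TaAffx.120874.1.S1_x_at, differed by -0.36 with the widest of these intervals (-1.02 to 0.30).

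In carbon fixation the 31 probe sets, most of them for rbcl, had a median difference of -0.157, and 13 of them had means under 6 in both lines. The rbcl probe set Ta.24976.1.S1_x_at was read at 16.75, 16.51 and 17.20 against 16.58, 16.70 and 16.92. PRK, which regenerates the acceptor of carbon dioxide in the Calvin cycle (Ta.23158.1.S1_at), was the separated one of the list, at 14.39, 14.64 and 14.86 against 14.34, 14.38 and 13.86, a difference of -0.43 (limma adjusted p = 0.69). The repeats of the lines were only 0.01 log2 units apart at their nearest. FBP, the fructose-1,6-bisphosphatase (Ta.439.1.S1_at), differed by 0.03 (-0.31 to 0.37).

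Defence transcripts differed most in PR5, a thaumatin-like pathogenesis-related protein (Ta.24501.1.S1_at). It was read at 13.28, 9.17 and 8.38 in Tugela and at 13.55, 14.16 and 12.87 in TugelaDn2, a difference of 3.25 that was not called (limma adjusted p = 0.571). Tugela repeat 1 lay among the TugelaDn2 repeats, and the difference was 4.75 without it, still not called (limma adjusted p = 0.243). PR5 was at 13.10 to 14.18 in TugelaDn1 and at 9.89 to 13.99 in TugelaDn5. The lignin gene COMT1, a caffeic acid O-methyltransferase (Ta.336.1.S1_x_at), was read at 11.45, 10.69 and 11.08 against 11.43, 12.09 and 12.02, a difference of 0.77 (limma adjusted p = 0.519) with overlapping repeats. The other pathogenesis-related gene listed, wci (Ta.10170.1.S1_at), was read at 8.45, 8.17 and 8.14 against 7.87, 8.05 and 7.62, a difference of -0.41 without overlap (limma adjusted p = 0.784). GLU1A, a beta-glucosidase that releases benzoxazinoids (Ta.4601.2.S1_at), was dimmer and overlapped, with a difference of 0.33. The lipid transfer protein gene LTP3 was bright in both lines at Ta.1282.1.S1_x_at, which differed by -0.32 (-0.72 to 0.08), and the 5 thionin probe sets had means under 6. All 5 serpin probe sets, the list of protease inhibitors, were dim.

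The 11 probe sets for scavenging of reactive oxygen had a median difference of -0.247, and 0 of them were without overlap, against 12.8% of all probe sets. Catalase, CAT1 (Ta.442.1.S1_at), was read at 13.79, 13.57 and 14.07 against 13.41, 13.50 and 13.61, a difference of -0.30. The 4 probe sets of the peroxidase gene Prx1 did not share a sign. The gibberellin 20-oxidases, which make gibberellins, differed by between -0.45 and 0.12 over 4 probe sets with overlap in each. AGP-S, the small subunit of the enzyme that makes ADP-glucose for starch (Ta.242.1.S1_at), differed by 0.10 (-0.26 to 0.45).

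Of the 19 probe sets for tubulins and histones 3 were without overlap, and of 6 for the ribosome and translation 2, against 12.8% of all probe sets. The alpha-tubulin TUBA (Ta.812.1.S1_x_at) was read at 13.58, 13.66 and 13.69 against 13.87, 13.95 and 13.91, a difference of 0.27, and the beta-tubulin Tubb4 (Ta.28022.1.S1_x_at) at 12.83, 12.90 and 12.97 against 12.42, 12.13 and 12.76, a difference of -0.47. Both were without overlap in opposite directions, and neither was called (limma adjusted p = 0.667 and 0.564). The co-chaperone gene FKBP70 (Ta.28955.1.S1_at) was without overlap at a difference of 0.18, while all 5 probe sets for cold and dehydration proteins had means under 6. The median over the tubulin and histone probe sets was 0.00332. The ribosomal protein gene RPS29, named after its values were seen, was separated by Ta.24254.3.S1_x_at, at 6.20, 6.00 and 6.45 against 7.46, 7.39 and 6.93, a difference of 1.04 (limma adjusted p = 0.265). Its brighter probe set, Ta.30687.2.S1_x_at, overlapped and differed by -0.52, so the 2 probe sets of this gene disagreed in sign. Probe sets with names in _x_at, _s_at or _a_at, as these have, can share probes with other transcripts.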

How the data were processed

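Total RNA from infested leaves was read on single-colour Affymetrix wheat GeneChip arrays. The table deposited by the authors gives 1 linear intensity for each probe set and array, already scaled, the mean after removal of 2% at each end being 500.1 on every array; the summarising software is not stated in the sources used. Intensities were floored at 16 before the log2 transformation, so folds against repeats at the floor are lower bounds, written as at least. After removal of 111 control probe sets all others were tested in limma 3.58.1 (R 4.3.3; lmFit, contrasts.fit, eBayes with default settings), with the 4 lines in 1 fit, no covariate, 8 residual degrees of freedom and Benjamini-Hochberg adjustment over 61179 probe sets. TugelaDn5 repeat 3 was the mean of 2 arrays. Unless another test is named, adjusted p-values are from this test. The number of arrays limits the precision. The fit was tested on simulated data with independent normal noise, equal between lines, and with changes only in probe sets above the median level. Recovery of dimmer changes was thus not tested.

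The clusters with 4 or more members were picked after their values were seen. Otherwise named were all called probe sets, the 15 largest rises and falls among bright ones without overlap with their cluster companions, the 10 clusters with the largest smallest difference, the 10 largest rises and falls paired with a gene, and up to 4 members of each gene list, brightest first. Other floors, scalings, variance models, array weights, the repeat number as a block and each repeat left out were tried. The members and lists were chosen with earlier results of these data known. Gene names came from the platform's table (1273 probe sets), of which 1272 were found among RefSeq genes; genes with only a LOC number were given no function.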

Additional observations from a re-analysis of the deposited data

How the results depend on the processing

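Against 23 calls, 14 of them bright, floors of 5, 6 and 7 on the log2 scale gave 44, 41 and 30 calls with 29, 30 and 27 bright, and they held 17, 12 and 12 of the 23. Modelling the spread with a trend and robustly gave 254 calls, 242 of them bright, with 18 of the 23. The 6 arrays alone gave 19 calls, 3 of them bright, with 4 of the 23. Testing only levels above the median gave 31 calls, 29 of them bright. Deviations of same-numbered Tugela and TugelaDn2 repeats correlated at 0.0, 0.17 and 0.03, and those of differently numbered repeats at -0.15 to 0.1. The numbers were not taken as pairs, although these values do not settle whether they are. With the replicate block 8 calls were left, all among the 23, 6 of them bright. Leaving out 1 repeat gave between 22 and 46 calls, and between 13 and 20 bright ones. The highest were 46, 45 and 36 without Tugela repeats 1, 2 and 3, and 44, 42 and 42 without TugelaDn2 repeats 1, 2 and 3. The share of lower calls was 52.2% as reported, 41.4% with quantile normalization, 50% after centring on the median and 62.5% with the replicate block, and ran from 36.7% at the floor of 7 to 66.7% without Tugela repeat 2. The 526 separated bright probe sets ranged from 580 to 829 without 1 repeat, were 348 with a mean of 8 or more over both lines and 132 at 4-fold or more, and lay between 482 and 526 under the other floors and scalings. The 79 probe sets named for their size were called, among the largest rises or falls, or in a leading cluster. They were chosen without overlap, so leaving out a repeat or raising the floor could not reverse their sign. None of the 79 changed sign in 24 alternatives, while members of the gene lists near 0 did. The differences of some dim called ones, such as Ta.18372.1.S1_at and Ta.5695.1.S1_at, shrank to 0.0 in at least 1 alternative. Of the 23 calls, 22 were lost in at least 1 alternative. Dim probe sets limit the comparison: 9 of the 23 calls were not bright, and 14 had repeats at the floor in the lower line. The cause of these shifts was not tested.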
